A study of Tupaia belangeri with 6 samples.

Results

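VIP/CALB2 interneurons were taken from single-nucleus RNA sequencing (snRNA-seq) of the hippocampus of tree shrews (TSs, Tupaia belangeri), and 224 nuclei of 37603 (0.596%) met the rule that selected them. The rule used measured unique molecular identifiers (UMIs, counts of single captured RNA molecules) of 12 genes. A nucleus needed at least 1 UMI of ADARB2, at least 3 UMIs of VIP, CALB2 and CALCR together, and at least 2 UMIs of VIP and CALB2 together. It could carry at most 1 UMI of LAMP5 and KIT together, at most 1 of NXPH1, and none of MOG, PDGFRA, AQP4, PTPRC or NEUROD6. The 3 control libraries and the 3 libraries with Alzheimer's-like pathology (ALP) each came from 1 animal. All animals belonged to a naturally aged cohort of 5 to 6 years without transgene or drug treatment, in which ALP TSs were picked for poor performance in a pipeline maze and control TSs were matched on age. The labels name the tissue as hippocampus and give neither sex nor the age of each animal. Y-linked transcripts numbered 1993, 1489 and 20 UMIs in Control 1 to 3 and 5, 2316 and 1 UMIs in ALP 1 to 3, so each group held libraries with many and with almost none.

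In the mammalian hippocampus, GABA-releasing interneurons restrain and time the firing of the principal cells. Those with vasoactive intestinal peptide (VIP) arise from the caudal ganglionic eminence (CGE), an embryonic source that also gives rise to interneurons with cholecystokinin and to neurogliaform cells. Many VIP cells, above all those with the calcium-binding protein calretinin (CALB2), contact other interneurons rather than principal cells and thereby release principal cells from inhibition. ADARB2, an RNA-editing family member, is a common marker of the CGE branch, and CALCR encodes the calcitonin receptor.

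The 6 libraries were of unequal depth. Control 1, 2 and 3 held 8785, 3011 and 7969 nuclei with 32679011, 19748976 and 35898940 UMIs. ALP 1, 2 and 3 held 5091, 7151 and 5596 nuclei with 20119934, 30520809 and 19182981 UMIs. The VIP/CALB2 nuclei numbered 28, 38 and 35 in control libraries and 36, 64 and 23 in ALP libraries, and together they carried 1096486 UMIs. The median VIP/CALB2 nucleus held 5069.5, 6110 and 5335 UMIs in Control 1 to 3 but 3116, 3507 and 3594 in ALP 1 to 3, so every ALP median lay below every control median. No barcode of a VIP/CALB2 nucleus occurred in another library, and no pair of libraries shared more than 18 barcodes. The upper limit of 2500 genes in the study's filter would have removed 9, 19 and 18 of the control nuclei and 5, 9 and 1 of the ALP nuclei, leaving 163 of the 224.

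The selected nuclei were above all VIP nuclei. VIP was counted in 220 of 224, with a median of 5 and a maximum of 37 UMIs. In 138 nuclei VIP was the only one of the 3 selecting genes present, 69 carried VIP and CALB2, and 8 carried VIP and CALCR. All 3 genes were present in 5 nuclei, CALB2 alone in 3, and CALB2 with CALCR in 1. VIP averaged 4.89, 6.63 and 4.94 UMIs per nucleus in control libraries and 8.03, 7.70 and 8.52 in ALP libraries, which do not overlap. Because VIP, CALB2 and ADARB2 chose the nuclei, their levels are a description only. CPM are counts scaled to the UMIs of the tested genes in the summed nuclei of each library. TMM factors adjust these totals for differences in composition. In CPM, VIP averaged 1152 in control and 2571 in ALP nuclei, CALB2 94.6 and 238, and ADARB2 16393 and 11851. At the edge of the rule, 40 nuclei had exactly 3 UMIs of VIP, CALB2 and CALCR, with a median depth of 4238 UMIs and DLX6 in 70%. Just outside it, 55 nuclei met all other conditions with 2 UMIs, at a median depth of 3566 UMIs and with DLX6 in 52.7%.

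Markers that took no part in the rule were read beside a background set, the nuclei with UMIs of the microglial genes PTPRC and of CSF1R or P2RY12, which should lack interneuron transcripts. Their median depth ran from 1161.5 to 18693 UMIs across libraries, so all nuclei were thinned to 2000 UMIs before comparison. DLX6, a homeobox regulator of GABAergic neurons, was found in 36.3% ± 11.0 of VIP/CALB2 nuclei (SD, n = 6 libraries) and in 2.03% of the background set. CNR1, the cannabinoid receptor of CGE-derived basket cells, was found in 43.0% ± 8.17 against 4.27%. ERBB4, a receptor tyrosine kinase of interneurons, reached 99.9% but also 68.0% of the background set. The CGE regulator PROX1 was found in 16.6% ± 7.52 and in 13.2% of the background set, but in only 1.61% of CNR1-high, 2.60% of LAMP5/KIT and 1.25% of NXPH1/LHX6 nuclei, 3 other interneuron sets defined below. NPAS1 reached 13.5% against 1.61%, but 30.4% of CNR1-high and 26.7% of LAMP5/KIT nuclei, and SP8 reached 2.44%. The CGE marker NR2F2 was found in 6.43% ± 5.69, beside 7.20% of CNR1-high, 5.60% of LAMP5/KIT and 4.65% of NXPH1/LHX6 nuclei. NR2F1, another regulator of CGE cells, was found in 44.2% ± 4.96 of VIP/CALB2 nuclei against 20.9% of the background set. MAF, a regulator used as a marker of the medial ganglionic eminence (MGE) branch, was found in 60.6% ± 12.5 against 30.6%, against that branch's other markers.

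Those other MGE markers were almost absent. LHX6 and PVALB had 0 UMIs among 1096486, which allows up to 2.74 CPM, SST had 4 UMIs, SOX6 7 and SATB1 8. Of the 6 genes that mark GABAergic neurons, GAD2 and SLC32A1 had no UMI in any nucleus of the series, and GAD1 had 9 in VIP/CALB2 nuclei and 250 in all nuclei. GABA synthesis therefore could not be checked in these tables. HTR3A, the serotonin receptor typical of CGE cells, had 0 UMIs in VIP/CALB2 nuclei and only 1 UMI in all nuclei of the series.

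**Figure D1:**
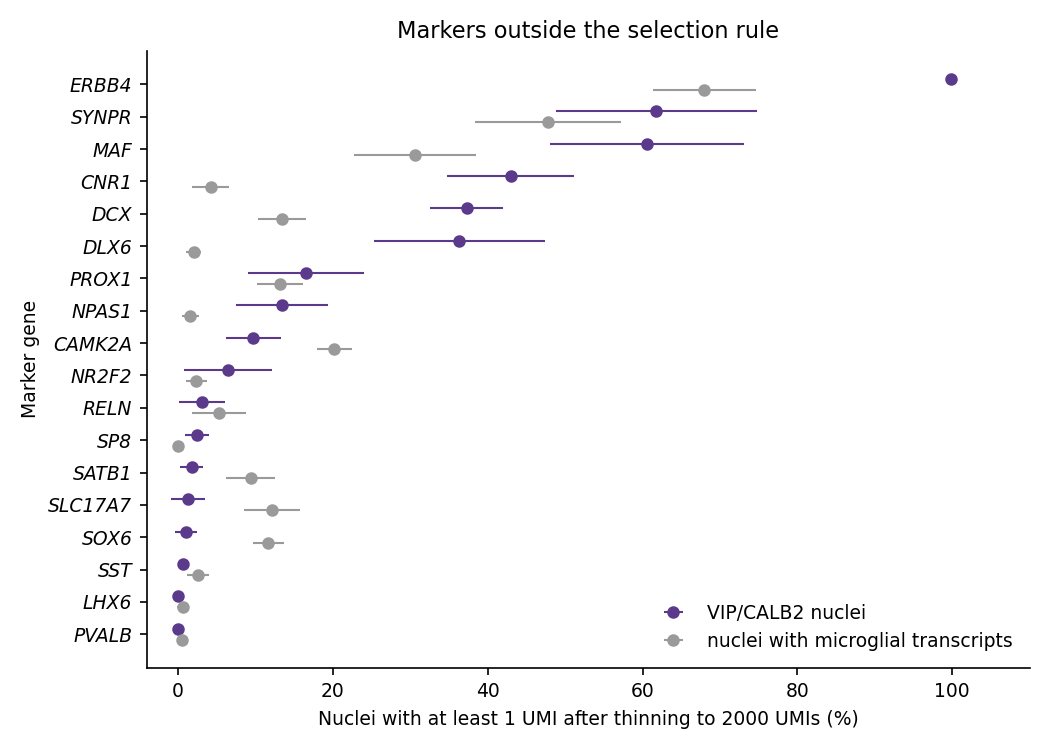
Share of nuclei with at least 1 UMI of each marker outside the selection rule after thinning to 2000 UMIs (%, mean with SD over 6 libraries), in VIP/CALB2 nuclei (purple) and in nuclei with microglial transcripts (grey). DLX6 and CNR1 stand well above the grey points, PROX1 lies close to its grey point (16.6% against 13.2%), and LHX6, PVALB and SST lie near 0 in VIP/CALB2 nuclei.

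Markers of other cell types were counted as well, although MOG, PDGFRA, AQP4, PTPRC and NEUROD6 were held at 0 by the rule. Of the 10 glutamatergic markers 8 had a UMI, with 25, 16 and 17 UMIs summed in control and 21, 29 and 10 in ALP libraries. The most abundant was CAMK2A with 53 UMIs, and SLC17A7, the main glutamate transporter of principal cells, had 6. Oligodendrocyte precursor markers summed to 99, 75 and 104 UMIs in control and 96, 266 and 62 in ALP libraries, almost entirely through the adhesion gene PCDH15 with 640. The oligodendrocyte markers MBP, MOBP and MAG had only 22, 0 and 114 UMIs in all nuclei of the series, so their 0 in VIP/CALB2 nuclei carries no information. Astrocyte markers were led by SLC1A3 with 24 UMIs, and microglial markers were led by P2RY12 with 9. Cajal-Retzius markers were at 0 except RELN with 20 UMIs. DCX, a microtubule protein of immature neurons that adult interneurons can retain, had 276 UMIs and was found in 37.3% ± 4.68 of VIP/CALB2 nuclei against 13.4% of the background set.

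The share of VIP/CALB2 nuclei did not separate the groups. It was 0.319% (95% Wilson interval 0.221 to 0.460), 1.26% (0.921 to 1.73) and 0.439% (0.316 to 0.610) in Control 1, 2 and 3. It was 0.707% (0.511 to 0.977), 0.895% (0.702 to 1.14) and 0.411% (0.274 to 0.616) in ALP 1, 2 and 3, within the control range. The means were 0.673% ± 0.513 and 0.671% ± 0.244 (SD, n = 3), with p = 1 by a two-sided exact permutation test, which cannot go below 0.1 with 3 libraries against 3. The intervals cover counting error only. Control 2, the library with the fewest and deepest nuclei, had the highest control share, and without it the difference was 0.292 percentage points in favour of ALP.

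After each nucleus was thinned to 2000 UMIs and the rule applied to the thinned counts, the shares were 0.289%, 0.607% and 0.381% in control and 0.994%, 1.27% and 0.644% in ALP libraries. The groups then did not overlap (difference 0.543 percentage points), but the rule's condition on VIP and CALB2 was applied again to the thinned counts, so this is a description without a test. Of 28, 37 and 34 members with at least 2000 UMIs in control libraries 14, 14 and 17 still met the rule after thinning, and of 31, 61 and 20 in ALP libraries 27, 52 and 16 did. Thinning left out 3949, 706 and 3502 shallower nuclei in control and 2375, 3046 and 3113 in ALP libraries. Control members thus dropped out more often, and VIP, which the rule used, averaged fewer UMIs per nucleus in them. Control members were also deeper (medians of 5069.5, 6110 and 5335 against 3116, 3507 and 3594 UMIs), so thinning removed a larger part of their counts. The part of depth and of VIP level in the thinned shares was not tested. Among the nuclei of 4 interneuron sets defined below, VIP/CALB2 nuclei made up 19.0%, 22.0% and 14.6% in control libraries. In ALP libraries they made up 23.4%, 32.0% and 24.5%, again without overlap. Membership rested on the rule's condition on VIP and CALB2 here too, so this is likewise a description without a test. Fewer nuclei of a type and less RNA per nucleus cannot be told apart from these shares.

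**Figure D2:**
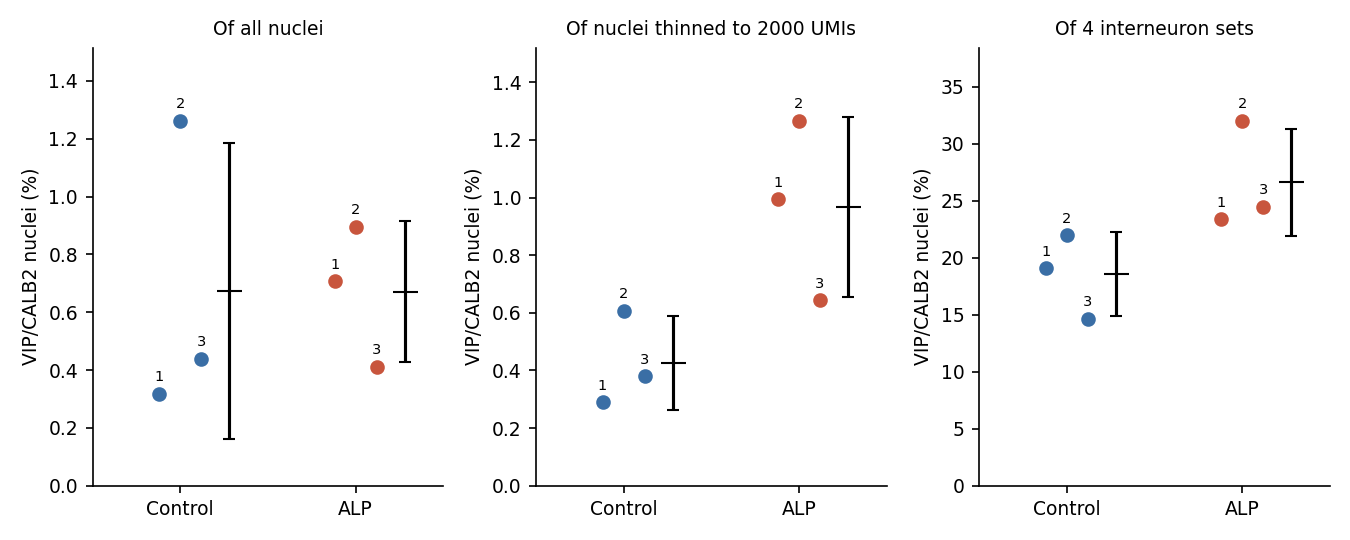
VIP/CALB2 nuclei as a percentage of all nuclei, of nuclei thinned to 2000 UMIs, and of the nuclei in 4 interneuron sets, 1 numbered point per library with mean and SD (n = 3) beside it. The groups overlap in the left panel (0.673% against 0.671%) and do not overlap in the other panels.

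VIP in the wider ADARB2 population was read without any condition on VIP, CALB2 or CALCR. In all nuclei with at least 3 UMIs of ADARB2 and the same exclusions, VIP reached 56.0, 214 and 83.4 CPM in control and 268, 220 and 187 CPM in ALP libraries. Control 2 lay above ALP 3, so the groups overlapped. The log2 fold change was 0.96, and without Control 2 it was 1.71. Without any of the other 5 libraries it ran from 0.62 to 1.10. The wider set held 182 VIP UMIs in Control 1 and 301 in ALP 1, and the VIP/CALB2 nuclei held 137 and 289. Most of these UMIs thus came from nuclei chosen by VIP, so the change is a description without a test. The VIP/CALB2 nuclei held 30.1%, 50% and 39.5% of their library's VIP UMIs in control and 54.2%, 55.0% and 64.7% in ALP, so much of the VIP message lay outside the selected nuclei, the more so in control libraries.

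To find what set these nuclei apart, they were compared within libraries with 3 other interneuron sets defined on other marker genes. These were 315 CNR1-high nuclei (also of the ADARB2 branch), 95 LAMP5/KIT nuclei (neurogliaform markers) and 373 NXPH1/LHX6 nuclei (MGE markers), none shared with the VIP/CALB2 set. Their median depth of 5720 to 8611.5 UMIs lay above that of the VIP/CALB2 nuclei in all 6 libraries, most narrowly in Control 2, where the lowest was 6296 against 6110. Counts were summed per library and set and tested with edgeR. A gene was called at an adjusted p under 0.05 and a log2 fold change beyond 1. Against CNR1-high nuclei 238 of 3550 tested genes were called (6.7%), 108 higher and 130 lower in VIP/CALB2 nuclei. Against LAMP5/KIT nuclei 197 of 2222 were called (8.87%), and against NXPH1/LHX6 nuclei 350 of 3842 (9.11%). Genes that vary with the selecting genes among nuclei enter these counts. A gene near absent in one set passed the filter on low counts through the other set, so its call is a description only.

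A group of 20 genes was higher in VIP/CALB2 nuclei than in each of the 3 sets and 10 were lower, among 2203 tested against all 3. Those higher included SORCS1, a sorting receptor of neurons (log2 fold change 3.17 against CNR1-high, 3.07 against LAMP5/KIT and 2.22 against NXPH1/LHX6), PTPRZ1, a receptor phosphatase (2.50, 2.27 and 2.07), RARB, a retinoic acid receptor (2.56, 2.61 and 1.63), and EGFR, the epidermal growth factor receptor (1.87, 2.28 and 3.55). PDE1C, a calcium-dependent phosphodiesterase, was higher by 2.88, 3.76 and 1.05, and SCG2, a granin of dense-core vesicles, by 1.94, 1.36 and 1.43. For SCG2 the groups were unlike, since VIP/CALB2 nuclei were at 91.9, 117 and 100.5 CPM in control against 51.7, 117 and 29.0 in CNR1-high nuclei, and at 446, 463 and 763 CPM in ALP against 46.3, 101 and 50.8. The adhesion genes DSCAM (1.21, 1.36 and 3.42) and NECTIN3 (1.02, 1.42 and 1.73) were also higher throughout. Those lower included RELN, the secreted matrix protein reelin (-5.77, -5.23 and -4.59), KCTD8, an auxiliary subunit of GABA-B receptors (-2.73, -3.07 and -2.81), COL19A1, a collagen (-4.52, -3.37 and -1.20), RPH3A, a vesicle protein (-1.87, -2.45 and -1.50), and CDH9, a cadherin (-1.65, -1.46 and -3.54).

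**Figure D3:**
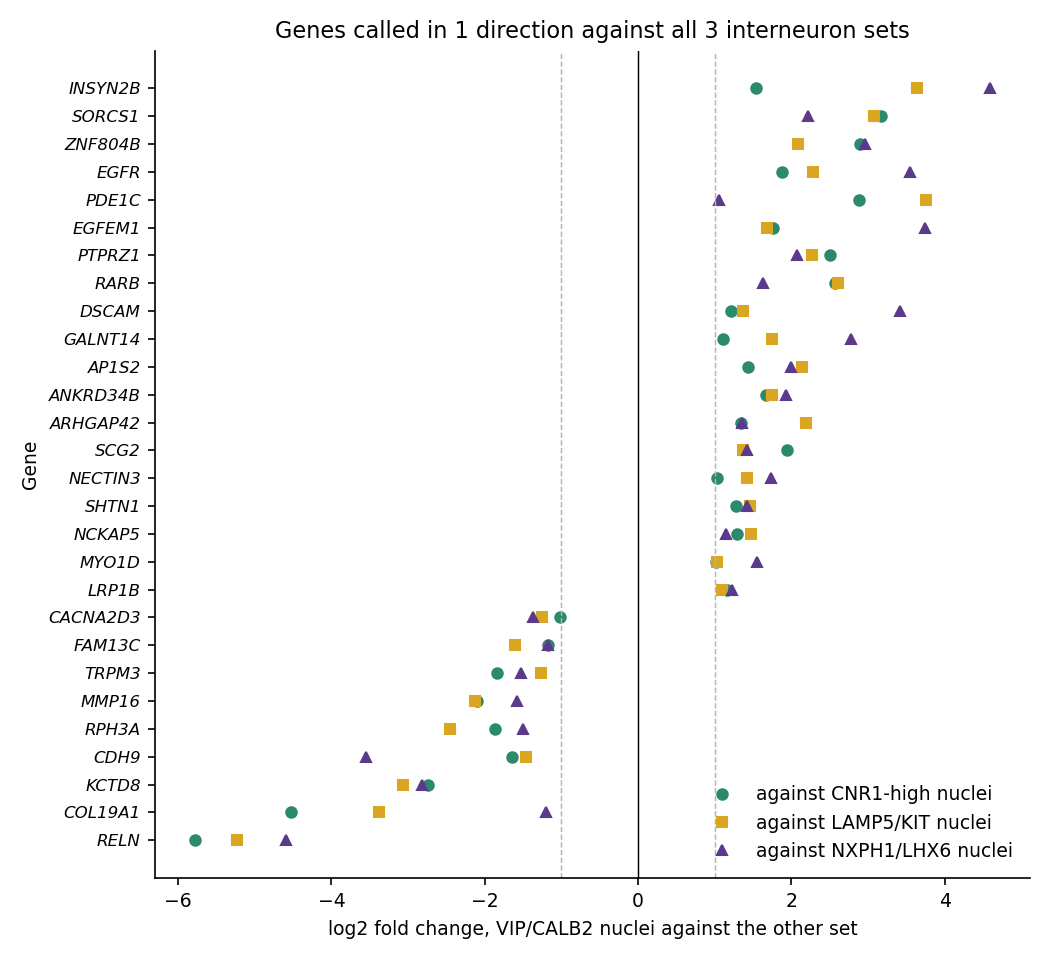
log2 fold change of VIP/CALB2 nuclei against CNR1-high (green), LAMP5/KIT (yellow) and NXPH1/LHX6 nuclei (violet) for the genes called in the same direction against all 3 sets, with dashed lines at -1 and 1. LINC-DSCAM-3 and SYT1-AS-1 were also called but are not drawn, and RELN lies farthest to the left at -5.77, -5.23 and -4.59.

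Against CNR1-high nuclei, which share the ADARB2 branch, CALN1, a neuronal calcium sensor, had the largest rise. It reached 551, 239 and 439 CPM in control and 446, 524 and 254 CPM in ALP libraries of VIP/CALB2 nuclei. In CNR1-high nuclei it reached 32.3, 52.8 and 40.6 CPM in control and 50.5, 25.2 and 21.8 CPM in ALP libraries. All 6 libraries were thus higher in VIP/CALB2 nuclei (log2 fold change 3.38, SE 0.22, adjusted p = 1.32e-09). RYR3, a calcium release channel of the endoplasmic reticulum, was higher by 2.91, ZNF804B, a zinc finger gene, by 2.90, and HS6ST3, a heparan sulfate sulfotransferase, by 2.24. RELN was lower in every library, with 23.4 ± 23.3 CPM in VIP/CALB2 and 1184 ± 347 CPM in CNR1-high nuclei (SD, n = 6), and COL19A1 fell from 1699 ± 270 to 73.1 ± 27.3 CPM. HTR2A, the serotonin 2A receptor, was lower by 3.40 on the log2 scale (30.5 ± 30.6 against 312 ± 68.3 CPM). CYYR1 had 1 UMI in VIP/CALB2 and 200 in CNR1-high nuclei, a ratio of 99.1 with a counting interval of 17.6 to 3934.

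By gene group, 8 of 36 synaptic adhesion genes were higher and 3 lower against CNR1-high nuclei, where 6.7% of all tested genes were called, with a median log2 fold change of 0.26 beside 0.01 over all genes tested. Higher were OPCML (2.01), CDH18 (1.82), IL1RAPL1 (1.69), PTPRD (1.66), CNTNAP2 (1.64), CNTN6 (1.60), CDH10 (1.47) and DSCAM, and lower were IL1RAPL2 (-3.16), CDH9 and CDH8 (-1.07). Of 16 glutamate receptor genes 5 were higher and none lower, namely the metabotropic GRM8 (1.80), GRM3 (1.61) and GRM7 (1.57), the NMDA subunit GRIN2A (1.22) and the kainate subunit GRIK2 (1.00). Of 32 voltage-gated channel genes CACNA1E was higher (1.16) and KCNN2 (-1.96), KCNC2 (-1.68) and CACNA2D3 (-1.02) were lower. The vesicle gene PCLO was lower (-1.45), and APP, the amyloid precursor, was lower by 1.05 on the log2 scale while CLU, a secreted chaperone, was higher by 1.18. Of 12 GABA receptor genes edgeR called none, though 6 had an unadjusted p under 0.05 (beside 878 of 3550 over all genes), and of 5 endocannabinoid enzyme genes it called none, with 0 at that p.

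Against LAMP5/KIT nuclei PDE1C led, with 440, 245 and 502 CPM in control and 436, 482 and 372 CPM in ALP libraries of VIP/CALB2 nuclei. In LAMP5/KIT nuclei it was at 33.1, 0 and 38.6 CPM and at 0, 54.7 and 32.2 CPM, below in all 6 libraries. The matrix and guidance genes GPC6, a glypican (3.37), NTNG1, a netrin-G adhesion protein (3.31), and EPHA3, an ephrin receptor (2.84), were higher, as was SYTL5, a Rab effector (2.59). SYNPR, a synaptic vesicle membrane protein used as a CGE marker, was higher by 2.10 (965 against 220 CPM) in all 6 libraries. EPS8, an actin regulator, was lower by 3.02 on the log2 scale, and CYYR1 had 1 UMI against 167. Beside 8.87% called of all tested genes, 9 of 33 synaptic adhesion genes were higher and 1 lower, with a median of 0.52 beside 0.04 over all genes, and of 15 glutamate receptor genes 4 were higher (GRM8, GRM7, GRIA1 and GRIN2A) and 2 lower (GRID1 and GRIA3). PCLO (-2.16), HTR2A (-2.98), KCNN2 (-1.78), CACNA2D3 (-1.25), APP (-1.15) and NPAS1 (-1.61) were lower here too.

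Against NXPH1/LHX6 nuclei PBX3, a homeobox transcription factor, reached 1021, 1110 and 519.8 CPM in control and 884, 759 and 516 CPM in ALP libraries of VIP/CALB2 nuclei, and between 6.11 and 30.6 CPM in NXPH1/LHX6 nuclei. Its log2 fold change was 5.54 (SE 0.24, adjusted p = 7.51e-14). Also higher were SORCS3 (4.38), NTNG1 (3.93), EGFEM1 (3.75), the potassium channel KCNQ5 (3.66) and the kinase PRKD1 (3.29). PRKCQ, a protein kinase C, had 0 UMIs in VIP/CALB2 and 254 in NXPH1/LHX6 nuclei, at least 34.7-fold lower against a floor of 3 counts over all libraries. SST, the peptide somatostatin, was lower by 5.88 and SOX6, an MGE regulator, by 5.09 on the log2 scale, RSPO2, a Wnt agonist, by 5.13, and the protease TLL1 had 1 UMI against 439.

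Against NXPH1/LHX6 nuclei, where 9.11% of all tested genes were called, 6 of 14 transcription factors were higher, namely DLX2 (1.97), NFIA (1.77), DLX5 (1.67), DLX6 (1.63), NPAS3 (1.43) and NPAS1 (1.04), and 3 were lower, among them SOX6 and SATB1 (-4.69). Of 11 neuropeptide genes CCK (2.97), CRH (2.33), SCG2 and PCSK2 were higher and SST and NPY (-3.50) lower. CCK, cholecystokinin, was at 596 CPM in VIP/CALB2 and 73.4 CPM in NXPH1/LHX6 nuclei, higher in all 6 libraries. Among 17 glutamate receptor genes none was higher and 5 were lower, GRIK3 (-3.07), GRIA3 (-2.81), GRIA4 (-1.81), GRIA1 (-1.47) and GRM5 (-1.06). The opioid receptor gene OPRM1 was lower by 3.93 on the log2 scale, and 5 voltage-gated channel genes of 33 were higher and 6 lower.

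Within the VIP/CALB2 set, nuclei with and without CALB2 differed. This split was chosen after the data were seen, and CALB2 itself is not a result of it. A CALB2 UMI was present in 78 nuclei and absent in 146. The share with CALB2 was 35.7%, 10.5% and 37.1% in control and 41.7%, 40.6% and 43.5% in ALP libraries (27.8% ± 15.0 against 41.9% ± 1.44, SD, n = 3), so Control 2 alone was low. Nuclei with CALB2 were shallower in every library, with medians of 2913 to 4090 against 3522 to 6279.5 UMIs. With the library as a block, 105 of 1091 tested genes were called by edgeR (9.62%), 41 higher and 64 lower with CALB2. The rule let nuclei without CALB2 in only through VIP, so nuclei with and without CALB2 were chosen by partly different genes. These calls are therefore a description only.

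NTNG1 had the largest fold change of the called genes. It reached 723, 1231 and 1491 CPM in control and 521, 452 and 1800 CPM in ALP libraries of nuclei without CALB2. With CALB2 it was at 37.3, 0 and 23.3 CPM and at 0, 113 and 135 CPM, below in all 6 libraries (log2 fold change -3.86, SE 0.37). LHFPL3, a tetraspan membrane protein (-3.32), TAFA2, a secreted chemokine-like protein (-2.92), EGFEM1 (-2.44) and EPHA6, an ephrin receptor (-2.35), were lower as well. With and without CALB2, NTNG1 had 12 and 484 UMIs, LHFPL3 29 and 931, TAFA2 73 and 1193, and EGFEM1 30 and 461. NTNG1, LHFPL3, TAFA2 and EGFEM1 passed the filter on low counts through the nuclei without CALB2, so their calls are a description only. CCK was lower with CALB2 in 6 of 6 libraries (430 ± 426 against 968 ± 559 CPM, log2 fold change -1.20), and CNR1 in 5 of 6 (385 ± 263 against 817 ± 141 CPM, log2 fold change -1.30).

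PCDH15, a protocadherin, was at 1892 ± 345 CPM with CALB2 and 474 ± 204 CPM without, higher in 6 of 6 libraries (log2 fold change 1.98, SE 0.19). NECAB1, a neuronal calcium-binding protein (1.76), CNTNAP2, a neurexin family adhesion protein (1.36), CST3, a protease inhibitor (1.35), SCG2 (1.33), PRKD1 (1.29) and IL1RAPL1 (1.28) were also higher in 6 of 6. Beside 9.62% called of all tested genes, 6 of 30 synaptic adhesion genes were higher (CNTNAP2, IL1RAPL1, SYNPR, OPCML, CDH13 and CNTN4) and none lower, at a median of 0.08 beside -0.02 over all genes tested. Glutamate receptors went both ways, with GRM7 (1.19) among 2 higher and the AMPA subunits GRIA1 (-1.25) and GRIA4 (-1.24) lower of 11. Of 27 voltage-gated channel genes KCNIP4 was higher (1.15) and KCNH1 (-2.00), DPP10 (-1.70) and KCNB2 (-1.63) were lower, and SYN3, a synapsin, was lower by 1.51 on the log2 scale.

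**Figure D4:**
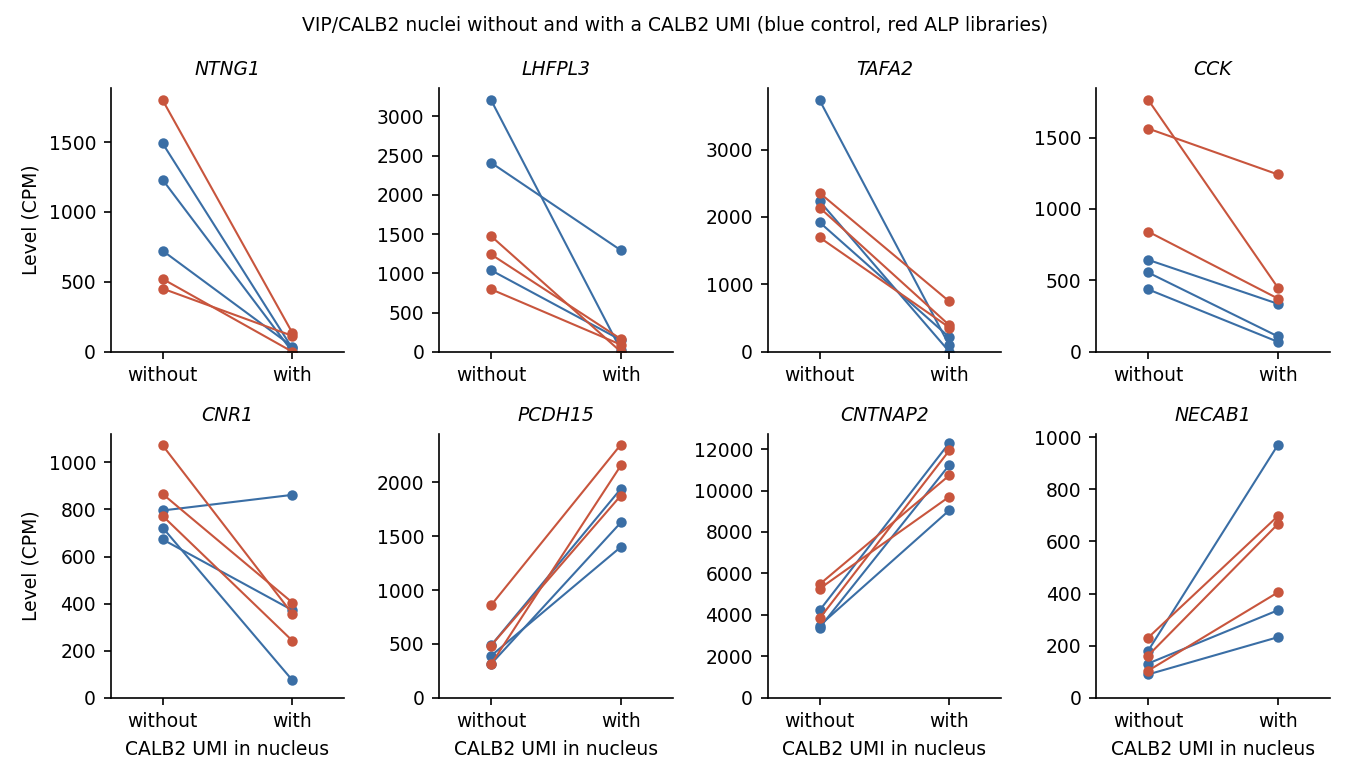
Level (CPM) of 8 genes in VIP/CALB2 nuclei without and with a CALB2 UMI, each line 1 library (blue control, red ALP). NTNG1, LHFPL3, TAFA2 and CCK fall and PCDH15, CNTNAP2 and NECAB1 rise in all 6 libraries, and CNR1 falls in 5 of 6.

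The question of the study was what changes in ALP TSs. Within VIP/CALB2 nuclei, 7 of 3009 tested genes were called (0.233%) at an adjusted p under 0.05 and a log2 fold change beyond 0.25, 3 higher and 4 lower in ALP. At an unadjusted p under 0.05 there were 411, of which 203 were higher. ALP values lay all above control in 294 genes (9.77%) and all below in 306 (10.2%), and the median log2 fold change of all tested genes was -0.01. The called genes were SCG2, CDH10 and IFI6, higher in ALP, and UNC5D and 3 unnamed or antisense features, lower in ALP. Those 3 features passed the filter on low counts through the control libraries, and IFI6 passed it through the ALP libraries. The calls of these features and of IFI6 are therefore a description only. Leaving out Control 1 gave 38 calls and leaving out ALP 1 or ALP 3 gave 1 call each. With the study's own filter edgeR made 0 calls, although the unadjusted p was under 0.05 for 135 of 1265 tested (SCG2 adjusted p = 0.0581). Since there are 3 animals per group and the ALP nuclei were shallower, the p-values measure the spread between these libraries, and the part of depth in the calls was not tested.

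SCG2, which encodes secretogranin II, the precursor of secretoneurin packed in dense-core vesicles, had the smallest p of all tested genes. It reached 100.0, 131 and 113 CPM in Control 1 to 3, from 13, 24 and 19 UMIs. In ALP 1 to 3 it reached 490.2, 511 and 846 CPM, from 55, 113 and 57 UMIs. The lowest ALP library was thus far above the highest control library (115 ± 15.3 against 616 ± 200 CPM, SD, n = 3, log2 fold change 2.36, SE 0.28, edgeR adjusted p = 0.00178). The order held with and without CALB2. By CPM without TMM scaling, nuclei with CALB2 had 107, 293 and 186 CPM in control and 739, 651 and 1121 CPM in ALP, and nuclei without CALB2 75.7, 92.5 and 48.9 CPM in control and 186, 315 and 309 CPM in ALP. In the background set SCG2 was at 21.4, 43.6 and 28.4 CPM in control and 52.9, 44.2 and 43.3 CPM in ALP, where Control 2 lay above ALP 3. CPM of the background set, here and below, are scaled to all its UMIs without TMM factors. They are thus on another scale than CPM of VIP/CALB2 nuclei, and only the order of libraries is read. In the wider ADARB2 population the log2 fold change of SCG2 was 1.03 (edgeR adjusted p = 0.0814).

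UNC5D, a netrin receptor that guides neuronal migration and axons, was lower in ALP. It reached 977, 963 and 905 CPM in control and 330, 384 and 223 CPM in ALP libraries, with 15 UMIs in ALP 3 as the fewest. No ALP library came near a control library (948 ± 38.0 against 312 ± 82.3 CPM, log2 fold change -1.55, SE 0.23, edgeR adjusted p = 0.0115). Among nuclei without CALB2 the groups were apart, at 926, 777 and 1047 against 382, 375 and 232 CPM, and among nuclei with CALB2 they overlapped. In the background set UNC5D was at 207, 351 and 411 CPM in control and 264, 343 and 403 CPM in ALP, with no such split. Without ALP 1 or without ALP 3 UNC5D no longer passed (adjusted p = 0.188 and 0.148). In the wider ADARB2 population, with no condition on VIP, CALB2 or CALCR, its log2 fold change was -0.11 (edgeR adjusted p = 0.754).

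CDH10, a cadherin of synaptic contacts, reached 377, 294 and 220 CPM in control and 820, 742 and 638 CPM in ALP libraries (log2 fold change 1.32, edgeR adjusted p = 0.0466), and in the background set 179, 209 and 167 against 211, 155 and 157 CPM. IFI6, an interferon-induced mitochondrial protein, reached 46.2, 103 and 89.3 CPM in control and 267, 217 and 312 CPM in ALP (log2 fold change 1.64, edgeR adjusted p = 0.0466). With 6 UMIs in Control 1, IFI6 passed the filter on low counts through the ALP libraries, where it was high. Its call is therefore a description only. For both genes the 3 ALP libraries lay above all controls, also when nuclei with and without CALB2 were taken apart. In the background set IFI6 too was higher in all ALP libraries (69.6, 70.5 and 75.3 against 86.8, 104 and 84.9 CPM). CDH10 no longer passed in 4 and IFI6 in 2 of the 6 fits that left out a library, and in the wider ADARB2 population neither passed (0.76 and 0.99, edgeR adjusted p = 0.0851 and 0.0904).

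The lower features ZEB2-AS-1 (log2 fold change -3.00), LORF2li11 (-2.53) and LRRTM4-AS-4 (-1.96) had an edgeR adjusted p of 0.0466 each. Their ALP libraries held 1 to 14 UMIs, so they passed the filter on low counts through the control libraries, where they were high. Their calls are therefore a description only. In the wider ADARB2 population their adjusted p was 0.0709, 0.0802 and 0.0709. ZEB2-AS-1 had 11, 21 and 48 UMIs in control and 2, 5 and 1 in ALP, and the direction was the same in the background set, where it was at 91.1, 68.8 and 227 against 3.78, 14.4 and 5.42 CPM. LORF2li11 was at 39.0, 56.2 and 62.6 against 15.1, 21.0 and 12.6 CPM there, and LRRTM4-AS-4 at 26.0, 52.0 and 88.5 against 18.9, 19.9 and 18.1 CPM. For these 3 features, then, the order of the groups was seen outside VIP/CALB2 nuclei as well, and whether it arose in them or in free RNA was not tested. The strand used in counting is not stated, so reads of an antisense feature cannot be told apart from those of its partner gene.

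**Figure D5:**
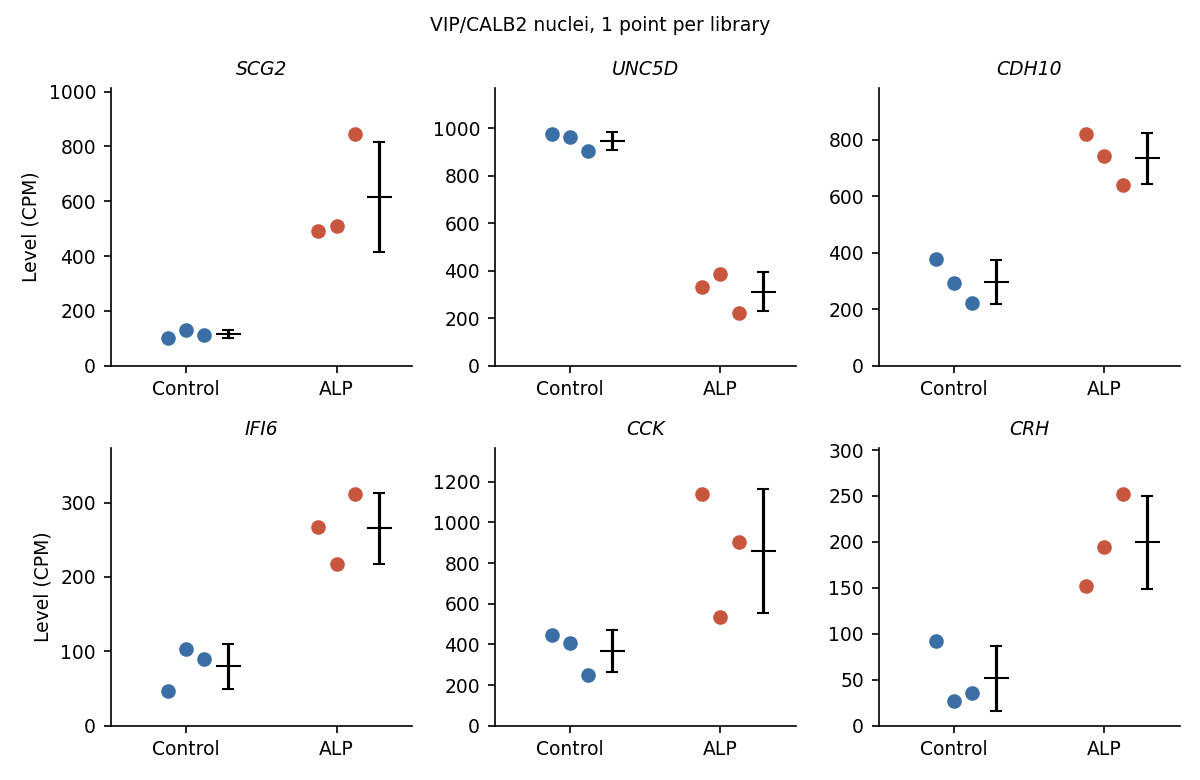
Level (CPM) per library of SCG2, UNC5D, CDH10, IFI6, CCK and CRH in VIP/CALB2 nuclei, control (blue) and ALP (red), with mean and SD (n = 3) beside the points. The groups do not overlap in any panel, and CCK and CRH did not pass the adjusted threshold (adjusted p = 0.0918 and 0.0539).

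Of 24 annotated neuropeptide and peptide-processing genes 10 passed the filter on low counts. Only SCG2 was called, and 7 were higher and 1 lower at an unadjusted p under 0.05, beside 411 of 3009 over all genes. CRH, with 5 and 6 UMIs in Control 2 and 3, and SCG3, with 11 in Control 3, passed the filter through the ALP libraries, where they were high. These counts therefore lean upward by construction and are a description only. CRH, corticotropin-releasing hormone, was at 92.3, 27.2 and 35.7 CPM in control and 152, 194 and 252 CPM in ALP, from 5 to 43 UMIs per library (log2 fold change 1.98, edgeR adjusted p = 0.0539). CCK was at 446, 408 and 250.1 CPM in control and 1141, 534 and 905 CPM in ALP (1.21, edgeR adjusted p = 0.0918). SCG3, a granin partner in granule formation, had a log2 fold change of 1.24 (edgeR adjusted p = 0.0978), and SCG5, a chaperone of the convertase PCSK2, of 1.18 with adjusted p = 0.137. PENK, proenkephalin, had 1.88 but overlapped between groups, at 7.69, 21.8 and 77.4 against 241, 18.1 and 237 CPM. PCSK2, the convertase itself, went the other way at -0.68 (adjusted p = 0.238), with all ALP libraries below control.

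No other group gave a call apart from CDH10 among the synaptic adhesion genes, where 1 of 33 passed at a median of 0.04. Here CTNNA3, an alpha-catenin, had -1.11 (adjusted p = 0.137), with all ALP libraries below control. Voltage-gated channels had 0 of 33 called by edgeR, with 1 higher and 6 lower at an unadjusted p under 0.05 (beside 203 higher and 208 lower of 3009 over all genes), among them KCNB2 (-0.81) and KCNQ3 (-0.70). Glutamate receptors had 0 of 16 called, with 3 higher and 1 lower at that p, among them GRIN2A at -0.56 (adjusted p = 0.229). GABA receptors had 0 of 11 called, with 1 higher and 1 lower at that p, the latter GABRA3 at -0.91. Of 6 calcium-binding protein genes none was called, with NECAB1 at 0.88. CGE and interneuron transcription factors had 0 of 12 called, with 0 at an unadjusted p under 0.05 and a median of 0.23, and vesicle release genes 0 of 11 with a median of -0.20. Of the amyloid and tau genes 0 of 6 were called, with CLU at 0.66 (adjusted p = 0.330) and APP at 0.39 (adjusted p = 0.493), and among 3 receptors for serotonin, acetylcholine and cannabinoids none was called, with CNR1 at 0.10. GABA synthesis, neuropeptide receptors, endocannabinoid enzymes, activity-regulated genes and heat shock genes had at most 2 members above the filter on low counts, none of them called, and oxidative phosphorylation had 6, with COX4I1 at 1.02 (adjusted p = 0.262). MGLL and MGLLli1, the monoacylglycerol lipase genes, were below that filter.

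Other features by the smallest p, not called, were LINC-MRPL42-8 (log2 fold change 1.61, adjusted p = 0.0539) and PRPF4B, a kinase of the splicing machinery (1.06, adjusted p = 0.0580). LINC-MAPRE3-1 (-2.90, adjusted p = 0.0503) and THSD4, a matrix protein (-1.48, adjusted p = 0.0511), had negative values. LINC-MAPRE3-1 had 15, 14 and 26 UMIs in control and 1, 5 and 0 in ALP, so it too passed the filter on low counts through the group where it was high. LINC-MRPL42-8, PRPF4B and LINC-MAPRE3-1 kept that order in the background set, where PRPF4B was at 256, 274 and 287 CPM in control and 521, 444 and 594 CPM in ALP, whereas THSD4 overlapped there.

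Whether the ALP effect differed between VIP/CALB2 nuclei and each other set was tested as an interaction in edgeR. No gene was called against CNR1-high (0% of 3550), LAMP5/KIT (0% of 2222) or NXPH1/LHX6 nuclei (0% of 3842), with 265, 108 and 242 at an unadjusted p under 0.05, and no other tool was run on it. SCG2 had differences of 2.21, 1.94 and 1.67 on the log2 scale (adjusted p = 0.158, 0.440 and 0.122). In CNR1-high nuclei it was at 51.7, 117 and 29.0 CPM in control and 46.3, 101 and 50.8 CPM in ALP, which overlap. UNC5D had differences of -1.53, -1.72 and -1.42 (adjusted p = 0.116, 0.236 and 0.126), and in CNR1-high nuclei it was at 420.0, 370 and 366 against 501, 307 and 355 CPM. CCK, by contrast, was higher in ALP in CNR1-high nuclei as well, at 181, 150 and 143 against 745, 341 and 653 CPM. These values do not show a difference in the ALP effect between the sets at the adjusted threshold.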

How the data were processed

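Raw UMI counts per gene and nucleus, deposited by the authors as filtered matrices, were used. The authors aligned reads with Cell Ranger 3.1.0 to the TreeshrewDB genome, and the matrix headers name 6.1.2. Build and strand are not given in the sources used here. The matrices had 83605 features and nuclei with at least 200 genes were kept. The members and gene lists were chosen with earlier results of these data known. No doublets were called, and 4 members were deeper than 3 times the median. Counts were summed per library and tested with edgeR 4.0.16 quasi-likelihood fits (TMM, filterByExpr with a minimum count of 10, Benjamini-Hochberg adjustment) in R 4.3.3, with library as a block between sets. DESeq2 1.42.0, upper-quartile scaling, no filter, other rules for members and leaving out each library were the alternatives. Shares were tested with exact permutation in scipy 1.17.1, with n = 3 per group, over 20 arrangements. The fits were tried on simulated data, and no value from those runs is used here. Named genes were the 6 largest rises and falls in ALP among called genes whose groups did not overlap, filled by smallest p, and up to 4 per list by smallest p. Between sets they were the 8 largest rises and 5 largest falls with 100 UMIs. Genes named beyond this rule (such as SCG5, PENK and PCSK2) were chosen after their values were seen. No sequence is printed, and totals per library cover counting error only. Some genes are not reported here.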

Additional observations from a re-analysis of the deposited data

How the results depend on the processing

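Between sets, all 39 named genes kept direction and call under each alternative run (333 values over genes and alternatives), and counts changed by over 1.5 times only without the filter on low counts (494, 405 and 927 against CNR1-high, LAMP5/KIT and NXPH1/LHX6 nuclei) and after thinning to 2000 UMIs (124, 93 and 156), which leave more or fewer genes to test. The split by CALB2 gave 184 calls without the filter, 22 higher and 162 lower in place of 41 and 64, and 89 to 126 with a library left out, and 3 of its 15 named genes were not called without the filter, among them PRKD1 and IL1RAPL1 (the latter because its log2 fold change was then just under 1).

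The calls between ALP and control were 7 in all. Totals (higher and lower in ALP) were 12 (5 and 7) by DESeq2, 84 (27 and 57) without the filter, 9 (2 and 7) for nuclei with at least 5 UMIs of the selecting genes, 14 (4 and 10) without the 4 deepest nuclei and 0 (0 and 0) under the study's filter. Alternatives added after the data were seen gave 24 (5 and 19) with a term for Y-linked transcripts, 15 (5 and 10) without LINC-FRMD8-1 and 0 (0 and 0, with 2488 of 12531 at an unadjusted p under 0.05) with no condition on VIP, CALB2 or CALCR. Leaving out 1 library gave 1 to 38 in all, 1 to 13 higher and 0 to 30 lower. Apart from the construction of each alternative, the cause was not tested.

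With the replicate number as a block 1 gene was called, 1 higher and 0 lower. Libraries of the same number did not deviate together (r across genes of 0.0157, 0.00906 and -0.00400), so the numbers are not known to pair animals.

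SCG2 passed in 14 of 16 alternatives, with a log2 fold change of 1.03 to 2.52 (adjusted p 2.68e-09 to 0.0814). It missed under the study's filter and with no condition on VIP, CALB2 or CALCR. UNC5D passed in 11 of 16, where its log2 fold change was -0.11 without that condition, IFI6 in 10 of 16, CDH10 in 8 of 16, LORF2li11 in 11 of 15, and LRRTM4-AS-4 and ZEB2-AS-1 in 8 of 14 each. Some genes not called above changed sign. With no condition on VIP, CALB2 or CALCR, APP was at -0.00649, VSNL1 at -0.55, HSF1 at 0.23 and KCNQ3 at 0.0384. There CHRM3 was at 0.12, GRIN2A at 0.0393, NPAS1 at -0.0180 and HCRTR2 at -0.0783. Under the study's filter VSNL1 was at -0.0824 and KCNB2 at 0.28, and HSF1 was at 0.0132 by DESeq2. HSPH1 was at 0.00866 with upper-quartile scaling, 0.0360 without the deepest nuclei and 0.20 with the Y-linked term. With a library left out HSF1 ran from -0.34 to 0.38, HSPH1 from -1.01 to 0.43 and CNR1 from -0.0778 to 0.28.

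Interactions gave 12 calls (CNR1-high) and 9 (NXPH1/LHX6) without the filter, and 0 to 6 and 0 to 16 with a library left out, where Control 1, Control 3 and ALP 2 gave 1, 6 and 3 for CNR1-high and Control 1 gave 16 for NXPH1/LHX6. The difference in shares, -0.00228 percentage points, was 0.543 after thinning, 0.190 under the study's filter, 0.0470 for at least 5 UMIs, and -0.180 to 0.292 with a library left out, above 0 without Control 2 (0.292) or ALP 3 (0.128). Among the 4 interneuron sets it was 8.06. Without thinning DLX6 was found in 63.2%, CNR1 in 60.1%, CCK in 55.3%, PROX1 in 26.9% and SST in 1.97% of VIP/CALB2 nuclei. Requiring a GAD1 or GAD2 UMI left a difference of -0.00265, but GAD1 had only 9 UMIs in VIP/CALB2 nuclei and 250 in all nuclei, so a gene fit on such members and a share among nuclei with these genes were not run.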

Other observations

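CALCR was counted in 14 of the 224 nuclei, with 59 UMIs, so it contributed little to the selection. TAC1, the substance P precursor, had 11 UMIs, all in ALP 2. NPY, neuropeptide Y, had 19 UMIs, of which 11 were in Control 1 and none in Control 2.

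A single feature, LINC-FRMD8-1, held 17.1%, 22.8% and 15.8% of the UMIs of VIP/CALB2 nuclei in control and 24.7%, 20.9% and 26.1% in ALP nuclei. LINC-MRPL42-8 was at 1384, 3069 and 1030.2 CPM in control and 7104, 3739 and 5952 CPM in ALP within VIP/CALB2 nuclei, and at 2596, 4186 and 1274 against 11285, 5140 and 9656 CPM in nuclei with microglial transcripts, so it was higher in every ALP library in both.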
